A study of Mus musculus with 6 samples.

Results

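Fast skeletal muscle fibres shorten quickly because their sarcomeres are built from fast forms of the contractile proteins. The 9 genes described here encode such proteins and a calcium buffer. Myh2 (type 2A fibres), Myh1 (type 2X) and Myh4 (type 2B) are the fast myosin heavy chains. The others are the fast regulatory light chain Mylpf, the fast troponins Tnnt3, Tnni2 and Tnnc2, the Z-disc protein Actn3, and the calcium buffer Pvalb. The 9 genes were chosen by name, with earlier results of these data known. All 14 probe sets that the platform annotation assigns to them were examined. Each gene is represented by its brightest probe set on average (log2 scale), as was each of the 18193 genes with 1 symbol on the array. All 9 passed the filter on low signals that left 11526 genes for testing, and 6 of the 9 have a single probe set.

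A sarcomere contracts when calcium binds troponin C, troponin I lets go of actin, troponin T passes the movement on to tropomyosin, and myosin heads then pull on the thin filament. The speed of the myosin heavy chain sets much of a fibre's shortening speed, in the order 2A, 2X and 2B in mouse limb muscle, and 1 myofibre usually expresses 1 of these heavy chains at a high level. The gastrocnemius, a calf muscle, is made mainly of fast fibres in mice, and parvalbumin, which takes up calcium after a contraction, is plentiful in rodent fast fibres.

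The study profiled gastrocnemius of male C57BL/6J mice on 6 expression arrays, each of them 1 pool, for 3 diets and 2 fasting times. The diets were a high-fat diet with 60% of its energy as fat that also held 0.023% sodium ferrous citrate (SFC) and 0.2% 5-aminolevulinic acid phosphate (ALA) by weight (HF+SFC+ALA), the same high-fat diet alone (HF), and a normal diet with 10% of its energy as fat (Control). For each diet there was a pool taken after 24 h of fasting and a pool taken after 4 h. Per the series' design text the mice were 6 weeks old at the start and ate their diet for 15 weeks, whereas the sample labels give an age of 21 months. Neither supplement alone, nor a supplement on the normal diet, nor unfasted mice, was analysed here. The sources used here do not give the number of animals behind a pool, so the spread between animals was not measured, and the p-values below reflect only how far the pools lie from a model in which diet and fasting time add up.

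The array signals had been scaled to 1 level, with a trimmed mean of 500.004 on each array, and any 2 arrays held exactly the same deposited value for at most 1 of the 45101 probe sets. The 6 markers of skeletal muscle fibres, Acta1, Ckm, Mb, Des, Ttn and Cacna1s, all passed the filter, and their summed signal lay between 202300 and 234800 in every pool, so the labelled tissue and the markers match. The actin controls' 3′ over 5′ ratio, a measure of RNA integrity and labelling, was 1.22, 1.15 and 1.08 in the HF+SFC+ALA, HF and Control pools at 24 h, against 1.21, 1.52 and 1.09 at 4 h. The HF pool at 4 h thus had the highest actin ratio. The same ratio of the Gapdh controls was 0.84, 0.81 and 0.86 at 24 h, against 0.84, 0.83 and 0.84 at 4 h. By Gapdh the HF pool at 4 h lay within the range of the other pools.

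The 3 fast myosin heavy chain genes lie side by side on chromosome 11 in the mouse build GRCm38.p6. Myh2 spans 11:67171027-67197517, Myh1 11:67200102-67224577 and Myh4 11:67237812-67260447. The other members lie elsewhere: Mylpf, Tnni2 and Tnnt3 on chromosome 7, Tnnc2 on chromosome 2, Actn3 on chromosome 19 and Pvalb on chromosome 15. The RefSeq promoter windows of the 3 myosin genes are shown because the 3 fibre types are told apart by them; each runs 5′ to 3′ on the plus strand over 300 bases, with 250 before the annotated start and 50 after it. They cover chr11:67170777-67171076, chr11:67199852-67200151 and chr11:67237562-67237861. Capitals mark matches, on either strand, to the E-box CANNTG, the consensus of the muscle factor MEF2, the MCAT element CATTCC and the TATA box TATAAA.
Myh2: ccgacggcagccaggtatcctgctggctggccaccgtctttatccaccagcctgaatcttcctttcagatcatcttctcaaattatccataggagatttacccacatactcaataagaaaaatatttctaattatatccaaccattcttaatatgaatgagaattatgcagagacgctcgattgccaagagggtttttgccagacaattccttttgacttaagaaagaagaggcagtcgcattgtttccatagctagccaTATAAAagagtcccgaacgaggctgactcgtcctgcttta
Myh1: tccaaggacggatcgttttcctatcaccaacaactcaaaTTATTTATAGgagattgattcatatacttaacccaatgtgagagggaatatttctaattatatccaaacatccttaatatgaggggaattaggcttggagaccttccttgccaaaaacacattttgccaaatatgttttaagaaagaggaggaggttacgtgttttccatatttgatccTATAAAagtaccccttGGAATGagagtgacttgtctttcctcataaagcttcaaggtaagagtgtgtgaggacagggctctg
Myh4: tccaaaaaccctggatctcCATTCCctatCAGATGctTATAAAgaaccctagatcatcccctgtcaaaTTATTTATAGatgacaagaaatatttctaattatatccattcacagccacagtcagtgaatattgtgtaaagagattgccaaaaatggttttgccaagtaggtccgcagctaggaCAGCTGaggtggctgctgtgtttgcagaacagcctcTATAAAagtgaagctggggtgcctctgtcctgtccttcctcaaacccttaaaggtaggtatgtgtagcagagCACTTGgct

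The same letters TTATTTATAG matched the MEF2 consensus in the windows of Myh1 and Myh4, with first bases at -211 and -182 from the start, and overlap a reverse-strand match to TATAAA there. A MEF2 match occurred in 3.19% of all 32851 promoter windows of this length. A TATAAA match began at -32 in Myh1 and at -31 in Myh4, and 13.6% of all windows held that motif. The Myh2 window held 1 TATAAA match, at base 11 of the transcript as annotated, and no match to the other 3 motifs. The Myh4 window held 3 E-boxes, a motif found in 72.3% of windows, and 1 CATTCC match (14.7% of windows). These matches describe letters only.

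Across the 6 pools the 9 genes varied little. The highest pool exceeded the lowest by 1.12-fold for Tnnt3 and by 1.31-fold for Tnnc2, with the others between. On the log2 scale the median span of the 9 genes over the pools was 0.25. It was 0.50 over all 11526 genes and 0.20 over 179 other genes with a mean signal of at least 20000, a group formed after the values were seen, so the members' span was not smaller than that of similarly bright genes. No member reached a span of 0.58, or 1.5-fold, so no list of genes with a like pattern was drawn up.

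Myh2 encodes the myosin heavy chain of type 2A fibres, the fatigue-resistant fast fibres. Its signal was 35117, 40312 and 40860 in the HF+SFC+ALA, HF and Control pools at 24 h, against 40224, 32879 and 35478 in the same diets at 4 h. The Control pool at 24 h was highest and the HF pool at 4 h lowest, and the pools of the 2 fasting times overlapped. With diet accounted for, the 24 h pools were 0.10 ± 0.09 log2 units above the 4 h pools (estimate ± SE, 3 pairs of pools, limma adjusted p = 0.636). The same comparison was positive in the HF and Control pairs and negative in the HF+SFC+ALA pair.

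Myh1 encodes the heavy chain of type 2X fibres. Its probe set 1427868_x_at read 40506, 45504 and 39521 in the HF+SFC+ALA, HF and Control pools at 24 h, against 41275, 37131 and 37356 at 4 h. HF at 24 h stood above every other pool, and HF and Control at 4 h were the lowest. The fasting difference was 0.12 ± 0.07 log2 units (SE, 3 pairs, limma adjusted p = 0.473), the lowest adjusted p among the 9 genes in this comparison. A second bright probe set of the gene, 1427520_a_at, read 38130, 40202 and 36833 at 24 h, against 37332, 33997 and 30322 at 4 h, and was higher at 24 h in all 3 diets. Its fasting difference was 0.18 ± 0.07 log2 units (SE, limma adjusted p = 0.215, unadjusted p = 0.0274), so it did not pass either. Whether these probe sets also read the other fast myosins was not tested.

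Myh4 encodes the heavy chain of type 2B fibres, the fastest in mouse limb muscle. Its signal was 42951, 50008 and 48250 in the HF+SFC+ALA, HF and Control pools at 24 h, against 47405, 44594 and 49066 at 4 h. The HF+SFC+ALA pool at 24 h was lowest and the HF pool at 24 h highest. The fitted fasting difference was -0.00040 ± 0.07 log2 units (SE, 3 pairs, limma adjusted p = 0.998), with a 95% interval of -0.17 to 0.17. The second probe set, 1458368_at, read 29647, 30674 and 31705 at 24 h, against 29443, 28676 and 29292 at 4 h, so there the 24 h pool was the higher in each diet. The 2 probe sets thus differ in the HF+SFC+ALA and Control pairs.

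Mylpf encodes the fast regulatory myosin light chain, which binds the neck of the heavy chain. Its signal was 47290, 54255 and 53752 in the HF+SFC+ALA, HF and Control pools at 24 h, against 51965, 47223 and 53341 at 4 h. The HF pools were both its highest and its lowest.

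Tnnt3, fast troponin T, anchors the troponin complex to tropomyosin. It read 58321, 64863 and 60831 in the HF+SFC+ALA, HF and Control pools at 24 h, against 62440, 57775 and 61584 at 4 h. This was the narrowest range of the 9 genes, with a coefficient of variation of 4.34% over the pools. Tnni2, fast troponin I, holds actin in the relaxed state until calcium arrives. It read 46516, 55255 and 54256 at 24 h, against 52044, 47510 and 52298 at 4 h, with the HF+SFC+ALA and HF pools changing places between the fasting times. A second Tnni2 probe set, 1438609_x_at, read 32797, 39953 and 40392 at 24 h, against 36909, 32383 and 39598 at 4 h. Its 2 lowest pools, HF+SFC+ALA at 24 h and HF at 4 h, were those of the first probe set.

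Tnnc2, fast troponin C, is the calcium sensor of the complex. It read 32853, 38640 and 39284 in the HF+SFC+ALA, HF and Control pools at 24 h, against 35205, 30006 and 36089 at 4 h. It had the widest range, with a coefficient of variation of 9.94%. Its Control pool was the highest of the 3 diets at both fasting times. Its fasting difference, 0.13 ± 0.09 log2 units (SE, 3 pairs, limma adjusted p = 0.493), was the largest estimate of the 9.

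Actn3, the alpha-actinin of fast fibres, crosslinks actin filaments at the Z-disc. It read 44960, 51055 and 52022 in the HF+SFC+ALA, HF and Control pools at 24 h, against 48478, 46351 and 52417 at 4 h. Both Control pools lay above all 4 pools on a high-fat diet, though narrowly: 52022 in Control at 24 h against 51055 in HF at 24 h. The difference of the high-fat diets from Control did not pass the test (limma adjusted p = 0.412). By the representing probe sets no other member was split in this way. The share of all genes so split was not computed, so the separation was not weighed against a background. Pvalb, the calcium buffer, read 41171, 49688 and 45873 at 24 h, against 44508, 43274 and 45708 at 4 h. Its Control pool lay between the HF+SFC+ALA and HF pools at 24 h, and above both at 4 h.

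**Figure D1:**
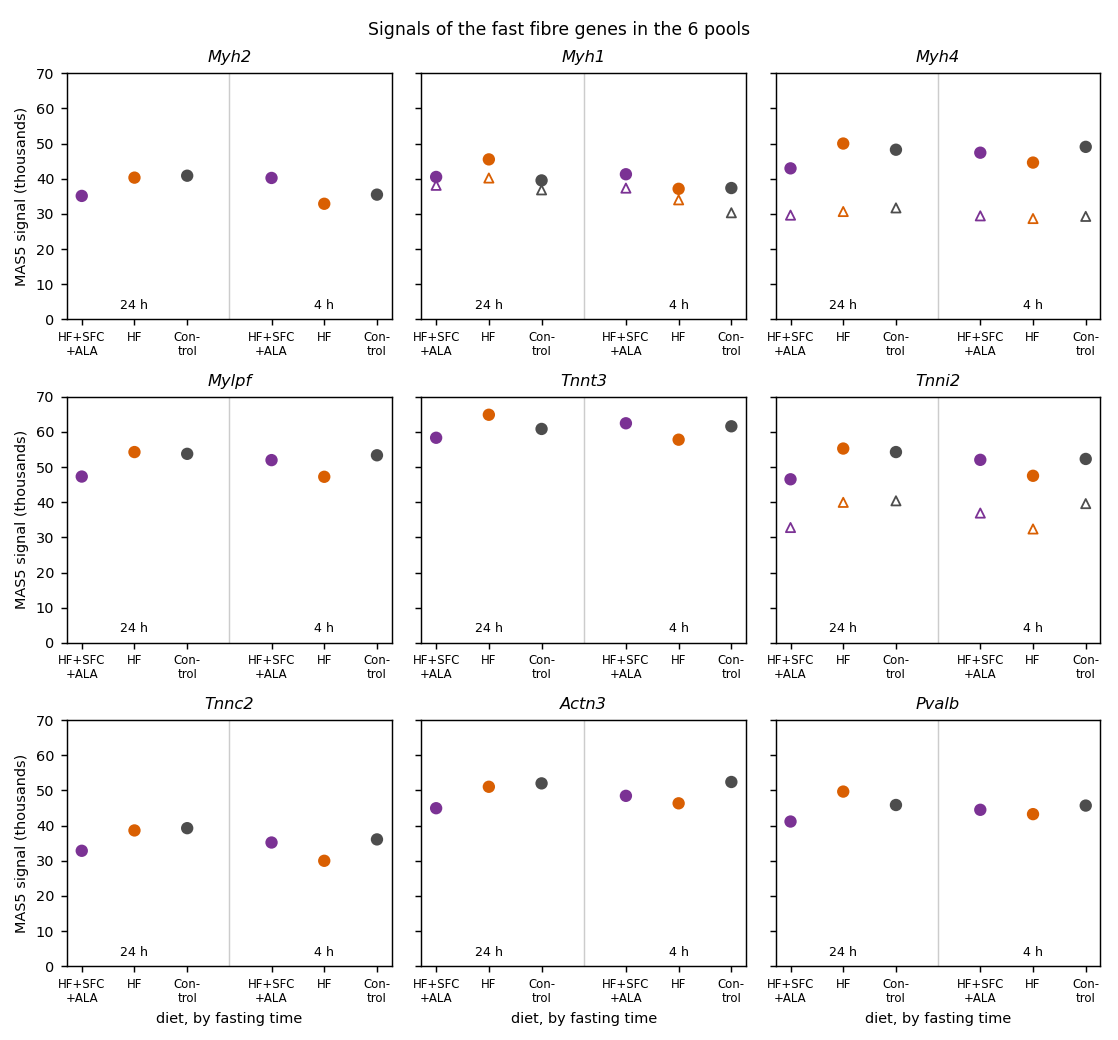
MAS5 signal (linear axis starting at 0) of the 9 fast fibre genes in each of the 6 pools, with the HF+SFC+ALA, HF and Control diets at 24 h on the left of each panel and at 4 h on the right. Filled points are the representing probe set and open triangles other bright probe sets of the gene; each point is 1 array of 1 pool, and the filled points of a gene stay within 1.31-fold of each other.

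Fasting time was the first factor the design varied, and the question was whether a longer fast altered these transcripts. None of the 9 genes passed the test for 24 h against 4 h, beside 2.41% of all genes tested (172 higher and 106 lower at 24 h; limma, Benjamini-Hochberg adjusted p under 0.05), and 0 of the 9 had an unadjusted p under 0.05, as 17.7% of all genes did. Their estimates ran between -0.00040 and 0.13 log2 units with a median of 0.03, beside a median of 0.0083 over all genes. Taken over the 9 genes, the 95% intervals reached as low as -0.17 and as high as 0.32 log2 units, so a change of 1.5-fold lay outside the interval of every member. No member differed the same way in all 3 diets, whereas 39.4% of all genes did, and none was 1.5-fold or more apart in 1 direction in all 3 pairs, as 0.555% of all genes were. These counts and intervals are those of the representing probe sets. The second bright probe sets of Myh1 and Myh4 were higher at 24 h in all 3 diets, that of Myh1 with an unadjusted p of 0.0274 (limma).

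Within this the diets did not run alike. In the HF pair every one of the 9 genes was higher at 24 h than at 4 h, by 0.14 (Actn3) to 0.36 (Tnnc2) log2 units with a median of 0.20. In the HF+SFC+ALA pair every one of the 9 was lower at 24 h, by between -0.20 (Myh2) and -0.03 (Myh1) with a median of -0.11. In the Control pair the median was 0.01, with 6 genes above 0 and 3 below. These values are those of the representing probe sets. In the HF+SFC+ALA pair the second bright probe sets of Myh1 and Myh4 were instead higher at 24 h (38130 against 37332, and 29647 against 29443). The second bright probe set of Tnni2 had the pattern, and its dim probe set 1438608_at ran the other way in both diets. A positive difference in HF together with a negative one in HF+SFC+ALA was found in 22.8% of all genes. Since each diet has 1 pair of pools, an interaction of diet and fasting time could not be tested, and the 9 genes were read from the same arrays and do not count as 9 observations.

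Most other bright genes had the same pattern. Of the 179 other genes with a mean signal of at least 20000, 117 (65.4%) had this pattern, with medians of -0.08 log2 units in the HF+SFC+ALA pair and 0.12 in the HF pair. When each array was centred on those 179 genes, 8 of the 9 members still had it, with Myh1 now at 0.02 in the HF+SFC+ALA pair. After the same centring 66 of the 179 and 1494 of all 11526 genes had it. The members' medians were then -0.07 in the HF+SFC+ALA pair and 0.10 in the HF pair. The lowest pool of 5 members, HF at 4 h, was also the pool with the highest actin 3′ to 5′ ratio, whose part in the pattern was not tested. Its Gapdh ratio, 0.83, lay within the range of the other pools.

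Slow fibre genes had the pattern with larger differences, which were not tested against those of the fast genes. Of 11 genes of slow fibres, among them the slow myosin Myh7, the slow light chains Myl2 and Myl3 and the slow troponin T Tnnt1, 10 were higher at 24 h in the HF pair and lower in the HF+SFC+ALA pair, the exception, named after its values were seen, being the calcium store protein Casq2. Their medians were -0.50 log2 units in the HF+SFC+ALA pair, 0.64 in the HF pair and -0.17 in the Control pair. Myh7 read 6716, 10109 and 7813 in the HF+SFC+ALA, HF and Control pools at 24 h, against 9992, 6100 and 8784 at 4 h. In 10 sarcomere genes shared by all fibres, such as the actin Acta1 and titin (Ttn), 7 had the pattern, and in 12 other fast fibre genes 8 did. None of the 5 adipocyte markers above the filter did.

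**Figure D2:**
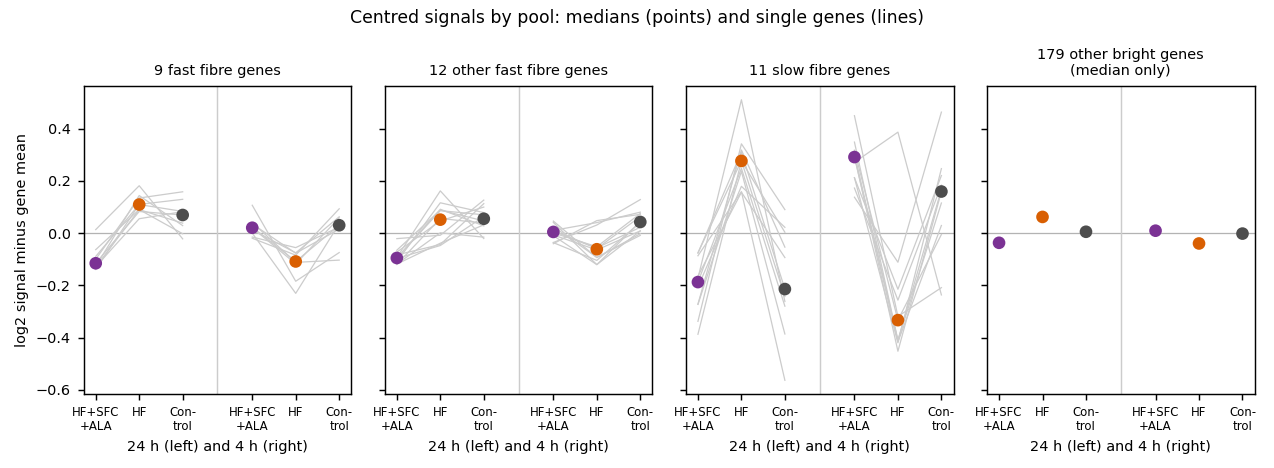
Log2 signal minus the gene's own mean over the 6 pools (vertical axis) by diet, at 24 h on the left and 4 h on the right of each panel, for the 9 fast fibre genes, 12 other fast fibre genes, 11 slow fibre genes and the 179 other bright genes. Points are medians over the genes and grey lines single genes; the members' median lay highest in HF at 24 h (0.11) and lowest in HF+SFC+ALA at 24 h (-0.12) and HF at 4 h (-0.11), and the slow fibre genes spread wider.

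The high-fat diet alone was set against the normal diet to ask what the diet does to muscle. None of the 9 genes passed for HF against Control, beside 0.885% of all genes (65 higher and 37 lower in HF; limma), and 0 of the 9 had an unadjusted p under 0.05, as 14.7% of all genes did. The estimates had a median of -0.06 log2 units and ran between -0.15 (Tnnc2) and 0.10 (Myh1), with a lowest adjusted p of 0.558. The 95% intervals spanned 0.766-fold to 1.23-fold over all members. Myh2, Tnnc2 and Actn3 read lower in HF at both fasting times, 3 of 9, where 59.9% of all genes kept their sign. No member was 1.5-fold apart in both pairs (2.22% of all genes were). All of these values rest on the representing probe sets. The second bright probe set of Myh1 was higher in HF at both fasting times (0.15 log2 units, 95% interval -0.049 to 0.34). Those of Tnni2 (-0.15, interval -0.40 to 0.090) and Myh4 (-0.039) were lower at both. None of them passed (limma adjusted p = 0.468, 0.542 and 0.841).

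Adding SFC and ALA to the high-fat diet is the comparison the series is named for. None of the 9 genes passed for HF+SFC+ALA against HF, and 0% of the genes tested did so, although 5.08% of all genes had an unadjusted p under 0.05 against 0 of the 9 (limma). The members' median was -0.03 log2 units, between -0.12 (Pvalb) and 0.05 (Myh2), with a lowest adjusted p of 0.973 and intervals between 0.801-fold and 1.23-fold. The sign depended on the fasting time in every member: at 24 h all 9 read lower in HF+SFC+ALA (median -0.20), and at 4 h all 9 read higher (median 0.13). No member therefore kept its sign across the fasting times, as 50.7% of all genes did, and none was 1.5-fold apart in both pairs (0.989% of all genes). These values are those of the representing probe sets. The second bright probe sets of Myh1, Myh4 and Tnni2 were also lower in HF+SFC+ALA at 24 h and higher at 4 h. The dim Tnni2 probe set ran the other way at both times.

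Taking both high-fat diets against Control, none of the 9 genes passed, beside 0.668% of all genes (47 higher and 30 lower on the high-fat diets; limma), and 0 had an unadjusted p under 0.05, as 16.5% of all genes did. The median was -0.08 log2 units. The lowest adjusted p was that of Actn3, at -0.13 ± 0.07 log2 units (SE, 4 pairs of pools, limma adjusted p = 0.412), which read lower on a high-fat diet in 4 of 4 pairs. Tnnc2, at -0.15 ± 0.09 (limma adjusted p = 0.465), was also lower in 4 of 4. Keeping 1 sign over all 4 pairs was seen in 37.1% of all genes and in these 2 of 9 members. Myh1 was the only member with a positive estimate, 0.09 ± 0.08 (limma adjusted p = 0.594), positive in 3 of 4 pairs. The intervals of the members lay between 0.783-fold and 1.21-fold, and no member was 1.5-fold apart in all 4 pairs (0.547% of all genes). These counts and intervals are those of the representing probe sets. The second bright probe set of Myh1 was higher on a high-fat diet in 4 of 4 pairs (0.16 log2 units, interval -0.0080 to 0.33). That of Tnni2 was lower in 4 of 4 (-0.18, interval -0.39 to 0.033), and that of Myh4 was mixed in sign (-0.042). None of them passed (limma adjusted p = 0.324, 0.387 and 0.799). The diet comparisons share pools with one another and are not independent.

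Some marker transcripts of cells other than muscle fibres differed between the same pools, while the amounts of those cells were not measured. Of 7 adipocyte markers 5 were above the filter, and Adipoq and Cidec were higher in HF than in Control, by 2.63 and 1.91 log2 units (limma adjusted p = 0.00275 and 0.00742). Lep passed as well (limma adjusted p = 0.00275), with signals of 366 and 592 in HF at 24 h and 4 h, against 19.5, under the floor, and 45.8 in Control, so its difference has no exact size. The summed signal of the 5 was 29086, 37023 and 26924 in the HF+SFC+ALA, HF and Control pools at 24 h, against 28691, 32800 and 22938 at 4 h. Most of that sum is Fabp4, which did not pass; without it the sum was 1107, 5250 and 717 at 24 h, against 2582, 6303 and 1312 at 4 h. Each diet's sum without Fabp4 was thus the higher at 4 h.

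Of 6 fibroblast markers Col1a1, Col3a1 and Dpt were higher in HF than in Control, by 0.82, 0.93 and 0.53 log2 units (limma adjusted p = 0.0158, 0.0229 and 0.0392). Lum, Pdgfra and Dcn did not pass, at 0.74, 0.21 and 0.05. Of 4 tendon markers Tnmd and Fmod were higher in HF, by 0.84 and 0.57 (limma adjusted p = 0.0108 and 0.0164), while Scx and Mkx did not pass, at 0.49 and -0.12. Col1a1 was also lower at 24 h than at 4 h, with a fitted difference of -0.62 ± 0.09 log2 units (SE, 3 pairs, limma adjusted p = 0.0129). For the high-fat diets against Control, Adipoq, Lep, Cidec, Col1a1, Col3a1, Tnmd and Fmod passed. None of these calls held without the intensity trend, without the filter, with averaged probe sets or with fasting time left out. That of Cidec was also lost under quantile normalization, without the floor and with a constant added in its place. It was lost as well without HF at 4 h or either HF+SFC+ALA pool. The call of Adipoq was lost with robust moderation. Fewer fibres of a type in a pool and less of its RNA per fibre cannot be told apart in whole muscle, and the part of the other cell types in the members' values was not tested. The calls for fasting and for HF against Control did not hold without the intensity trend, without the filter or with the other factor left out of the model, and with averaged probe sets only that of Lep did. The HF against Control call of Col3a1 was also lost with robust moderation, and that of Dpt with arrays centred on bright genes. Without HF at 24 h those of Col3a1, Dpt, Tnmd and Fmod were lost, that of Dpt was also lost without HF at 4 h or either HF+SFC+ALA pool, and the fasting call of Col1a1 was lost without either HF+SFC+ALA pool.

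**Figure D3:**
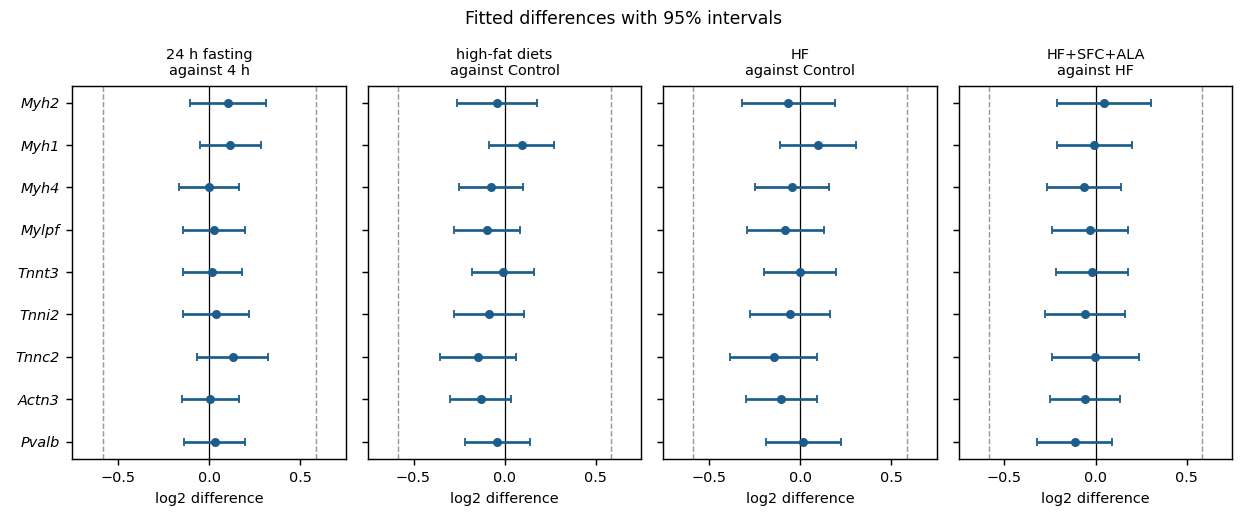
Fitted log2 differences of the 9 fast fibre genes (horizontal axis, the diet or time named first minus the one named second) with 95% intervals from limma, for 24 h against 4 h, both high-fat diets against Control, HF against Control and HF+SFC+ALA against HF. Dashed lines stand at 1.5-fold; every interval crosses 0 and stays inside the dashed lines.

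The balance of the 3 fast myosins within a pool does not depend on a scaling factor common to the array, so it was described as well, in a form added after the values were seen and with no test. The log2 ratio of Myh1 over Myh4, set to a mean of 0 over the pools, was 0.14, 0.09 and -0.06 in the HF+SFC+ALA, HF and Control pools at 24 h, against 0.03, -0.04 and -0.17 at 4 h. It was higher at 24 h in all 3 diets, and at each fasting time HF+SFC+ALA stood highest and Control lowest. On the high-fat diets the ratio was 0.17 log2 units (1.13-fold) above Control on average, between 0.13 and 0.20 over the 4 pairs. A ratio to Myh4 that was higher in all 4 of these pairs was found in 24.7% of all genes, and one higher at 24 h in all 3 diets in 16.6%. For HF against Control the ratio averaged 0.14 higher, in 2 of 2 pairs, as the ratio to Myh4 was higher in both pairs in 34.4% of all genes.

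How far this held depended on the probe sets, and whether a myosin's probe set also reads another myosin was not tested. With each of the other bright probe sets of Myh1 and Myh4, alone or together, the ratio stayed higher on a high-fat diet in 4 of 4 pairs, by 0.14 to 0.24 log2 units. The fasting difference of the ratio averaged 0.12 log2 units, but with the other Myh4 probe set it averaged 0.04 and was positive in 1 of 3 diets. For HF+SFC+ALA against HF the ratio was 0.06 higher, in 2 of 2 pairs (27% of all genes), and -0.0021 with that probe set. The ratios that involve Myh2 were mixed for fasting: Myh2 over Myh4 was higher at 24 h in 2 of 3 diets, and Myh1 over Myh2 in 1 of 3. In the diet comparisons Myh1 over Myh2 was higher in HF than in Control in 2 of 2 pairs, by 0.16 log2 units on average (0.21 with the other Myh1 probe set), and higher on the high-fat diets in 3 of 4 pairs (4 of 4 with that probe set). Myh2 over Myh4 was higher in HF than in Control in 1 of 2 pairs, and in HF+SFC+ALA than in HF in 2 of 2 (1 of 2 with the other Myh4 probe set). No share of all genes was computed for the ratios to Myh2.

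**Figure D4:**
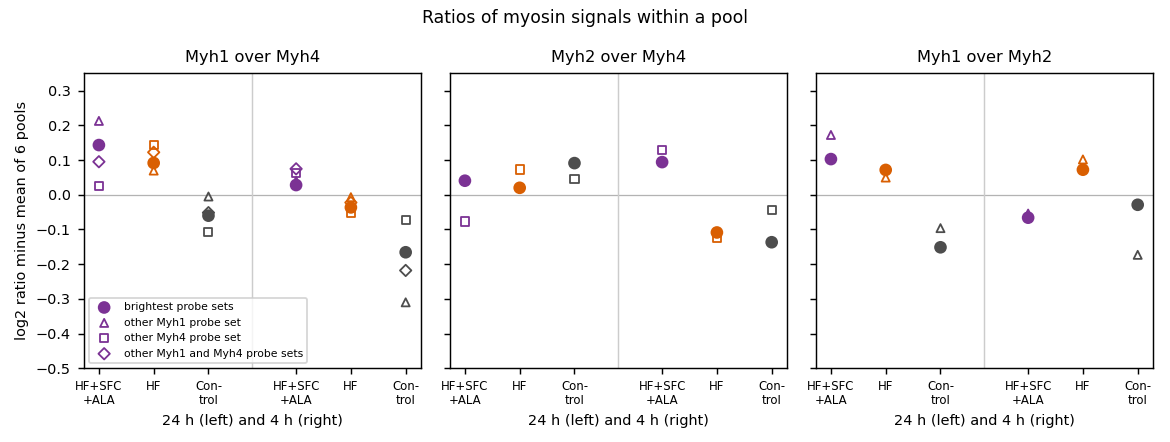
Log2 ratio of 2 myosin signals within a pool minus its mean over the 6 pools (vertical axis), for Myh1 over Myh4, Myh2 over Myh4 and Myh1 over Myh2, by diet at 24 h (left) and 4 h (right). Filled points use the representing probe sets and open symbols the other bright probe sets of Myh1 and Myh4; Control is the lowest diet at both times for Myh1 over Myh4 with the representing probe sets.

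The other genes of the fast programme did not pass either. Of the 12 other fast fibre genes, which include the fast light chain Myl1, the tropomyosin Tpm1, the myosin-binding protein Mybpc2 and the Z-disc protein Myoz1, 0 passed the test in any of the 4 comparisons. Their medians were 0.02 log2 units for fasting, -0.06 for HF against Control, -0.06 for HF+SFC+ALA against HF and -0.08 for the high-fat diets against Control. None of the 11 slow fibre genes passed; the lowest adjusted p was that of Casq2 at 0.62 ± 0.13 log2 units for HF against Control (SE, limma adjusted p = 0.0636). None of the 10 sarcomere genes shared by all fibres passed.

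Developmental myosins, which regenerating fibres express, had low signals. Embryonic Myh3 read 119, 195 and 113 in the HF+SFC+ALA, HF and Control pools at 24 h, against 186, 122 and 109 at 4 h. Perinatal Myh8 read 308, 201 and 238 at 24 h, against 212, 310 and 123 at 4 h. Of the 5 genes of this list 3 were above the filter and 0 passed in any comparison.

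Among 20 regulators of fibre type, 17 were above the filter and 2 passed, both for fasting. Ppargc1a, a coactivator that promotes mitochondria and slow fibre genes, read 1239, 1798 and 978 in the HF+SFC+ALA, HF and Control pools at 24 h, against 2314, 2515 and 2992 at 4 h. The 24 h pool was the lower in each diet, and the fitted difference was -0.9995 ± 0.17 log2 units (SE, 3 pairs, limma adjusted p = 0.0212). Rcan1, a calcineurin inhibitor that is itself a calcineurin target gene, read 4121, 5034 and 2995 at 24 h, against 5996, 5842 and 5230 at 4 h, a difference of -0.52 ± 0.10 (limma adjusted p = 0.0357). Both calls were lost without the intensity trend, without the filter, with probe sets averaged, with diet left out of the model, and without either HF+SFC+ALA pool, and that of Ppargc1a also with robust moderation. The other 15 regulators, among them Six4, Eya1, Tbx15 and Nfix of the fast programme, did not pass for fasting, and none of the 17 passed in a diet comparison.

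Dimmer probe sets of the members behaved otherwise. Tnni2 probe set 1438608_at read 1101, 657 and 822 in the HF+SFC+ALA, HF and Control pools at 24 h, against 893, 1159 and 999 at 4 h. It was highest in HF at 4 h and lowest in HF at 24 h, whereas the representing Tnni2 probe set was highest in HF at 24 h. Its fasting difference was -0.27 ± 0.17 log2 units (SE, limma adjusted p = 0.479). Myh1 probe set 1452465_at did not pass the filter and was not tested. It read 73.7, 105 and 6.62 in the HF+SFC+ALA, HF and Control pools at 24 h, against 164, 131 and 12.5 at 4 h. Both Control pools lay under the floor of 26.4 and all 4 high-fat pools above it. The share of all probe sets split in this way was not computed. Where on the 2 transcripts these probe sets lie is not given in the files used here.

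**Figure D5:**
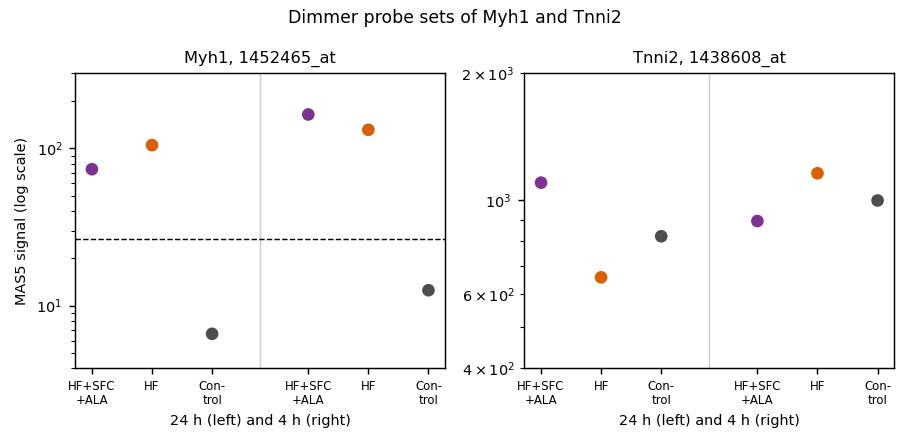
MAS5 signal (log axes, which differ between panels) of the Myh1 probe set 1452465_at and the Tnni2 probe set 1438608_at in the 6 pools, by diet at 24 h (left) and 4 h (right). The dashed line is the floor of 26.4; both Control pools of the Myh1 probe set lie under it and the 4 high-fat pools lie above it.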

How the data were processed

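Gastrocnemius RNA, pooled within each group, was hybridised on 6 arrays, 1 per diet and fasting time. Each deposited value is the linear intensity of 1 probe set, and the submitters' processing notes name MAS5; the sources used here give neither its version and settings nor scan dates. Of 45101 probe sets, 64 controls were left out, and of the 45037 others 34945 had 1 gene symbol, 932 several and 9160 none listed. Symbols were updated through gene identifiers for 34741.

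Values lower than the 30th percentile were raised to it (26.4) ahead of the log2 step. A gene's brightest probe set (mean log2 signal) stood for it, and genes were kept above the median mean log2 signal of 5.88. Diet and fasting time were fitted additively with limma 3.58.1 in R 4.3.3 (lmFit, eBayes with trend; 2 residual and 7.27 prior degrees of freedom; two-sided; Benjamini-Hochberg at 0.05), and the fit was tested on simulated data. In the simulated pools 73.2% of 2-fold and 45.9% of 1.5-fold fasting changes, set in genes of any signal level, were recovered. Of the calls made there, 5.85% were false. Tables and figures used Python 3.11.15. Promoter windows and gene positions are RefSeq's for GRCm38.p6, the genes being matched by identifier; windows were given for Myh2, Myh1, Myh4, Mylpf, Tnnc2 and Pvalb.

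Every member is named with all its probe sets. The members and the gene lists were chosen with earlier results of these data known. Other genes were named where they passed the test, with up to 4 others as the first of their list; Casq2 was named after its values were seen. The alternatives were quantile normalization, other floors and filters, averaged or other probe sets, other moderation, a factor left out, each pool left out, and, added after seeing the data, centring on bright genes and other probe sets in the myosin ratios. Of the other marker lists, none of the 5 macrophage, 4 endothelial, 3 satellite cell or 2 measured Schwann cell markers passed in any comparison.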

Additional observations from a re-analysis of the deposited data

Results flagged for a closer look

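By the representing probe sets, the fasting difference (24 h minus 4 h) of all 9 fast fibre genes ran in opposite directions in 2 diets. It was lower at 24 h in HF+SFC+ALA and higher in HF, each from 1 pair of pools, so the difference between the diets was not tested. The second bright probe sets of Myh1 and Myh4 were higher at 24 h in HF+SFC+ALA as well, and the dim Tnni2 probe set 1438608_at was reversed in both diets. The fasting difference in HF+SFC+ALA minus that in HF was -0.49 log2 units for Myh2, -0.32 for Myh1, -0.31 for Myh4, -0.34 for Mylpf and -0.27 for Tnnt3. It was -0.38 for Tnni2, -0.46 for Tnnc2, -0.25 for Actn3 and -0.31 for Pvalb. The pattern was also present in 22.8% of all genes, in 65.4% of the other bright genes and in 10 of 11 slow fibre genes. After centring on the bright genes it was present in 8 of the 9 members, 66 of the 179 other bright genes and 1494 of all 11526 genes. The part of the actin 3′ to 5′ ratio, 1.52 in HF at 4 h and 1.08 to 1.22 elsewhere, was not tested. The Gapdh ratio was 0.83 in HF at 4 h and 0.81 to 0.86 elsewhere.

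Myh1 probe set 1452465_at, whose mean signal did not pass the filter, entered no comparison of the report as a probe set of its own and gave 73.7, 105 and 6.62 in the HF+SFC+ALA, HF and Control pools at 24 h, against 164, 131 and 12.5 at 4 h. All 4 pools on a high-fat diet were above the floor of 26.4 and both Control pools under it. Set against the floor, the signal was at least 2.79-fold and 3.97-fold higher than Control in the HF+SFC+ALA and HF pools at 24 h, and at least 6.23-fold and 4.97-fold higher at 4 h. The bright Myh1 probe sets differed by far less between these pools, and there is no replicate of any pool. How many other dim probe sets split around the floor in this way was not computed, so these values do not establish a difference in Myh1 itself.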

How the results depend on the processing

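No fast fibre gene passed the test in any of the 4 comparisons under any alternative run. Of 592 combinations of a member, a comparison and an alternative, 521 kept their direction or came to 0, and 71 took the other direction. The 521 include Tnnt3 under quantile normalization, where its differences are 0 by construction, and Actn3 there for HF+SFC+ALA against HF. Of the 592, 0 passed, and the lowest adjusted p was 0.0952 (limma). The direction of such small differences therefore depended on the setting, and the cause was not tested. With averaged probe sets, 1 member, Myh1, was 1.5-fold apart the same way in both pairs of HF against Control; the average includes the probe set under the floor in both Control pools, and the fitted difference was then 0.80 (limma adjusted p = 0.109), against 0.097 with the brightest probe set. With averaged probe sets the fasting difference was -0.064 for Myh1, 0.037 for Myh4 and -0.059 for Tnni2, and the difference of HF+SFC+ALA against HF was 0.026 for Tnni2. With single other probe sets, Myh1 stood at 0.029 for HF+SFC+ALA against HF (1427520_a_at), Myh4 at 0.074 for fasting (1458368_at), and Tnni2 at -0.27 for fasting, 0.18 for HF+SFC+ALA against HF and 0.038 for the high-fat diets against Control (1438608_at). The ratio of Myh1 over Myh4 for HF+SFC+ALA against HF was -0.0021 with the other Myh4 probe set. Under quantile normalization the fasting difference was -0.039 for Actn3 and -0.022 for Pvalb, and that of HF+SFC+ALA against HF was 0.032 for Myh1, 0.048 for Mylpf, 0.026 for Tnnc2 and 0.0094 for Tnni2; the signal of Tnnt3, the top of each array, is made equal by that method. With arrays centred on the bright genes, added after seeing the data, the fasting difference was -0.014 for Actn3 and -0.0039 for Tnnt3, that of HF against Control was -0.0093 for Tnnt3, and that of HF+SFC+ALA against HF was 0.017 for Myh1, 0.023 for Tnnc2 and 0.0044 for Tnnt3.

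Leaving out each pool in turn gave fasting differences of -0.060 to 0.064 for Actn3, -0.083 to 0.071 for Myh4, -0.062 to 0.11 for Mylpf, -0.054 to 0.10 for Pvalb, -0.054 to 0.14 for Tnni2 and -0.058 to 0.075 for Tnnt3. For HF against Control the ranges were -0.036 to 0.23 for Myh1, -0.21 to 0.080 for Myh2, -0.17 to 0.081 for Myh4, -0.21 to 0.050 for Mylpf, -0.11 to 0.14 for Pvalb, -0.32 to 0.032 for Tnnc2, -0.19 to 0.080 for Tnni2 and -0.11 to 0.11 for Tnnt3. For HF+SFC+ALA against HF they were -0.16 to 0.040 for Actn3, -0.14 to 0.13 for Myh1, -0.18 to 0.27 for Myh2, -0.19 to 0.059 for Myh4, -0.16 to 0.10 for Mylpf, -0.24 to 0.011 for Pvalb, -0.18 to 0.17 for Tnnc2, -0.21 to 0.090 for Tnni2 and -0.13 to 0.092 for Tnnt3. For the high-fat diets against Control they were -0.15 to 0.070 for Myh2, -0.10 to 0.024 for Pvalb and -0.066 to 0.046 for Tnnt3. A comparison then rests in part on a single pair, whose pools are assumed to vary like the others.

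The counts over all genes, the background of the members' counts, depended strongly on the setting. For fasting 278 genes passed, against 0 without the intensity trend, 0 without the filter, 18 with averaged probe sets, 60 with diet left out, and 59 to 455 with a pool left out. For HF against Control 102 passed, against 0, 0, 1, 0 (fasting time left out) and 47 to 592. For HF+SFC+ALA against HF 0 passed, against 8 with bright-gene centring, 10 with robust moderation, 6 with the filter at the 65th percentile, and 0 to 109 with a pool left out, the highest without Control at 24 h. For the high-fat diets against Control 77 passed, against 124 with robust moderation, 0 without the trend, without the filter, with averaged probe sets or with fasting time left out, and 6 to 622 with a pool left out. Genes apart in 1 direction in all pairs by 1.5-fold numbered 64, 256, 114 and 63 in the 4 comparisons in that order, and 405, 1028, 562 and 333 at the lower limit of 0.32 log2 units; with a pool left out, when fewer pairs must agree, they ran from 182 to 239, 256 to 1514, 114 to 906 and 93 to 578, the highest without either HF pool, without either 4 h pool of Control or HF, without the 4 h pool of HF+SFC+ALA or HF, and without Control at 4 h. No paired analysis was possible because the labels carry no replicate numbers and each combination of diet and fasting time has 1 pool; diet and fasting time served as blocks for each other. The number of arrays limits the precision, and saturation of such bright probe sets was not tested.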
